A study of Rattus norvegicus with 13 samples.

Results

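The enzymes described here are the 8 genes that modify and cross-link collagen: the 5 lysyl oxidases (Lox, Loxl1, Loxl2, Loxl3 and Loxl4) and the 3 lysyl hydroxylases (Plod1, Plod2 and Plod3). They were taken by gene symbol from the 28357 rows of the day 3 files that name a gene, and all 8 were found. The set was chosen with earlier results of these data known. RNA-seq was done on peripheral cornea with the adjoining limboscleral tissue of wild-type male Lewis rats aged 2 months, all serving as a model for loss of the limbal stem cells that renew the corneal epithelium, after which blood vessels grow into the cornea. Of 13 libraries in the series, 6 were from day 3: 3 from rats given systemic spironolactone, a mineralocorticoid receptor antagonist, at 25 mg/kg/day, and 3 from rats given the vehicle, 90% olive oil with 10% DMSO. The protocol text, which is the same for all libraries, describes daily subcutaneous injection for 3 days. The sources used here do not say how the stem cell deficiency was produced. They also do not say whether each library is a different animal. The p-values rest on the spread among libraries within the groups of 3, moderated by that of the other genes.

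Collagen is made stable in 2 enzymatic steps. Inside the endoplasmic reticulum, lysyl hydroxylases, which need iron and ascorbate, add hydroxyl groups to lysines of the new chains; Plod2 acts mainly on the telopeptides at the chain ends, and that hydroxylation sets which kind of cross-link forms later. Outside the cell, lysyl oxidases, which need copper, oxidize lysine and hydroxylysine to aldehydes that then join neighbouring collagen or elastin molecules. In the cornea and sclera the strength of the stroma rests on such cross-links, and Lox and Plod2 are known in other tissues as genes induced by TGF-beta and by hypoxia.

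Totals of estimated counts ran from 18176059 to 25311091 per library. Markers of corneal stroma and epithelium were both present. The stromal proteoglycan gene Lum had 1298 to 1572 CPM (counts scaled to a common library total), the basal keratin gene Krt5 had 2863 to 7183 CPM, and the corneal keratin gene Krt12 had 7.80 to 12.2 CPM. The keratocyte gene Kera was uneven, at 37.0 CPM in spironolactone replicate 1 and 30.4 CPM in vehicle replicate 1, against 76.0 to 92.0 CPM elsewhere. Both replicates 3 stood apart in markers of other eye tissue. Spironolactone replicate 3 had 182 CPM summed over 7 retinal markers, against 2618 and 3339 CPM in the other 2 spironolactone libraries and 3936 to 4390 CPM in the vehicle libraries, and vehicle replicate 3 had 407 CPM summed over 4 lens markers, against 1.29 to 32.2 CPM elsewhere. Results are therefore also given without these 2 libraries, a choice made after seeing the data.

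Of the 8 enzymes, 6 had lower values with spironolactone and none passed the test. Plod2 and Lox were the 2 genes whose 3 spironolactone libraries all lay below the 3 vehicle libraries. The median log2 fold change (spironolactone over vehicle) of the 8 genes was -0.23, against -0.01 for all 14762 genes tested. EdgeR's quasi-likelihood test with Benjamini-Hochberg adjustment called 0 of the 8 at an adjusted p of 0.05, against a background of 0% of all genes (lowest adjusted p = 0.0649, with 3332 genes at an unadjusted p under 0.05). At an unadjusted p under 0.05, 5 of the 8 were lower (Lox, Loxl1, Loxl2, Plod2 and Plod3), where 10.4% of all genes were lower at that p. The 2 genes with no overlap stand against 16.1% of all genes whose spironolactone CPM values all lay below the vehicle values. DESeq2 called 2 of the 8, Plod2 and Lox, as lower, where it called 3.55% of genes lower. In this bulk tissue, fewer cells that express a gene and less of its RNA per cell cannot be told apart.

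**Figure D1:**
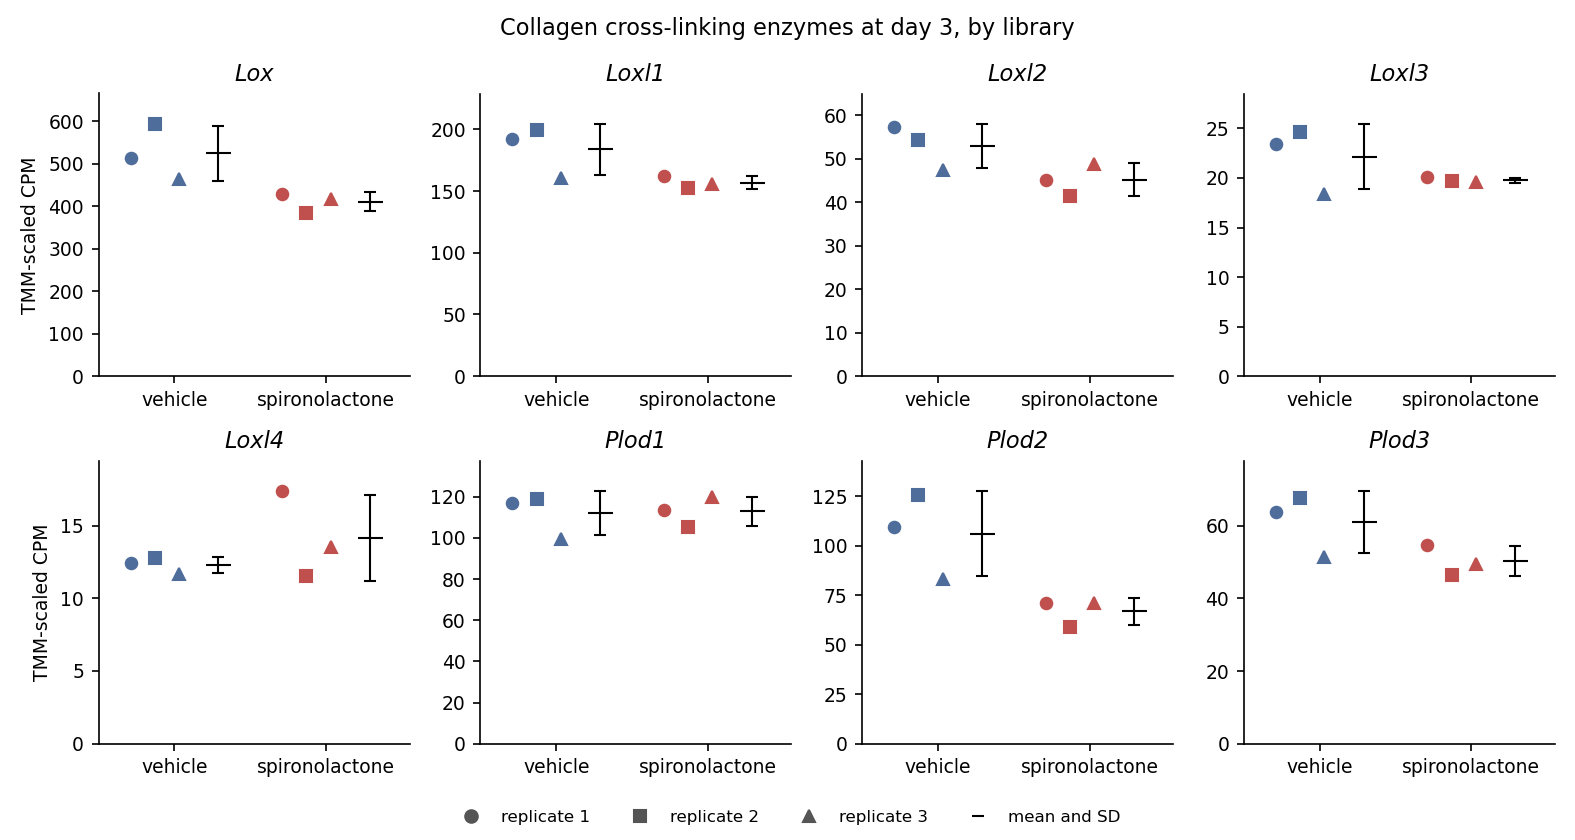
TMM-scaled CPM of the 8 enzymes in each day 3 library, with vehicle in blue, spironolactone in red, the symbol giving the replicate number, and black bars the mean and SD of 3 libraries. The axes start at 0 and differ between genes. Plod2 and Lox are the panels with no overlap between the groups, and vehicle replicate 3 is the lowest vehicle library in all 8 panels.

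Lox encodes the founding lysyl oxidase, which acts on fibrillar collagen and elastin. It had 428, 385 and 418 CPM in spironolactone replicates 1, 2 and 3, and 515, 595 and 466 CPM in vehicle replicates 1, 2 and 3. The groups did not overlap, and the gap between the highest spironolactone library and the lowest vehicle library was smaller than the spread among the vehicle libraries. The means were 410 ± 22.3 CPM (SD, n = 3) and 525 ± 65.1 CPM (SD, n = 3), at a log2 fold change of -0.36 (SE 0.096, 95% interval -0.58 to -0.13, adjusted p = 0.103 by edgeR). With DESeq2 the adjusted p was 0.0126.

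Loxl1 encodes the relative known for elastic fibre assembly. Its CPM values were 163, 153 and 155 in spironolactone replicates 1 to 3 and 192, 199 and 160.3 in vehicle replicates 1 to 3. Vehicle replicate 3 lay inside the spironolactone range, and the other 2 vehicle libraries lay above it. The log2 fold change was -0.23 (SE 0.086, adjusted p = 0.186 by edgeR). Loxl2, which acts on collagen IV of basement membranes among other substrates, had 45.2, 41.3 and 48.9 CPM with spironolactone and 57.2, 54.3 and 47.4 CPM with vehicle. Here spironolactone replicate 3 lay above vehicle replicate 3, and the log2 fold change was -0.23 (SE 0.093, adjusted p = 0.204).

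The last pair of lysyl oxidases had the fewest reads. Loxl3 had 20.1, 19.7 and 19.6 CPM with spironolactone and 23.4, 24.7 and 18.4 CPM with vehicle. The 3 spironolactone libraries were nearly equal, at an SD of 0.267 CPM, while vehicle replicate 3 was the lowest of all 6, and the log2 fold change was -0.17 (SE 0.11, adjusted p = 0.411 by edgeR). It was -0.07 without vehicle replicate 2, the highest library, and -0.27 without vehicle replicate 3. Loxl4 had 17.4, 11.6 and 13.6 CPM with spironolactone and 12.4, 12.8 and 11.7 CPM with vehicle. It was the one lysyl oxidase with a higher mean under spironolactone, and spironolactone replicate 1 carried most of that difference. Its log2 fold change was 0.20 (95% interval -0.16 to 0.56, adjusted p = 0.448) and was 0.03 without that library and 0.33 without spironolactone replicate 2. Loxl4 rested on 271 to 308 estimated reads per library, where Lox had 7601 to 13275.

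Among the lysyl hydroxylases, Plod2 had the largest difference of the 8 genes in the fit over 6 libraries. It had 70.9, 59.2 and 70.9 CPM in spironolactone replicates 1, 2 and 3, and 109.3, 126 and 83.5 CPM in vehicle replicates 1, 2 and 3. No spironolactone library reached the lowest vehicle library, and the vehicle libraries were the more widely spread. The means were 67.0 ± 6.80 CPM (SD, n = 3) and 106 ± 21.3 CPM (SD, n = 3), so the fitted level with spironolactone was 0.631 times that with vehicle. The log2 fold change was -0.66 (SE 0.16, 95% interval -1.04 to -0.29, adjusted p = 0.0861 by edgeR, adjusted p = 0.00131 by DESeq2). The row sums 3 transcripts of the gene, so the splice forms of Plod2 were not told apart, and its mean transcript length varied only from 3652 to 3666 bases over the 6 libraries.

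Plod1, the lysyl hydroxylase of the helical part of collagen, had no detectable difference. It had 113, 105 and 119.7 CPM with spironolactone and 117, 119 and 99.6 CPM with vehicle, and the groups overlapped throughout. The log2 fold change was 0.01 with a 95% interval of -0.19 to 0.21 (adjusted p = 0.949 by edgeR). The intervals of Plod1 and Plod2 did not overlap; the difference between the genes itself was not tested. Plod3, which also carries glycosyltransferase activity on hydroxylysine, lay between them. It had 54.7, 46.5 and 49.6 CPM with spironolactone and 63.9, 67.7 and 51.5 CPM with vehicle, at a log2 fold change of -0.28 (SE 0.11 and adjusted p = 0.208), with vehicle replicate 3 inside the spironolactone range.

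The 250 bases before the start of Plod2 and Plod1 are shown because these 2 lysyl hydroxylases differed most in response and Plod2 is known as a hypoxia-induced gene. They are RefSeq sequences of the GRCr8 assembly, read on the strand of each gene, while the submitters' processing notes name the older rn6 and Rnor_6.0 builds. Plod2 is at chr8:101964068-101964317 on the plus strand and Plod1 at chr5:163650738-163650987 on the minus strand. Capitals mark the hypoxia response cores ACGTG and GCGTG on either strand, where CACGT is ACGTG read on the other strand.
Plod2: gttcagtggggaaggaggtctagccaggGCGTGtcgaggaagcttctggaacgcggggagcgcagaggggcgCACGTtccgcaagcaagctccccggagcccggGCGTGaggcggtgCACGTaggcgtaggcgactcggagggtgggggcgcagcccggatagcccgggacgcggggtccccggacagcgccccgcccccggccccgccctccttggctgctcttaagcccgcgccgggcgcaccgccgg
Plod1: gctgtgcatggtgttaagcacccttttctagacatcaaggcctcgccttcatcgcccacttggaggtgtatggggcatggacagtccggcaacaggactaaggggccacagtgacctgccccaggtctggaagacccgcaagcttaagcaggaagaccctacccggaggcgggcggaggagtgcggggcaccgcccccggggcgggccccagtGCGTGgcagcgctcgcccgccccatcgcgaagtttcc

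The Plod2 stretch holds 4 such cores and the Plod1 stretch 1. Of 33469 RefSeq promoters of the same length, 2.44% hold 4 or more and 36.7% hold at least 1, counting both strands and overlapping matches. ACGTG is in 16.6% of promoters and GCGTG in 25.9%, each counted whether or not the other core is present. Plod2 is also the richer in G and C, at 74.8% against 65.6%. The promoter table had entries for 6 of the 8 genes, all but Lox and Loxl2. None of these 6 held the steroid receptor motif AGAACA on either strand, which is in 17.5% of all promoters, and Loxl1 alone held the SMAD motif CAGACA, which is in 17.2%. A match is a description of letters in this window and says nothing on binding.

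Leaving out each library in turn kept the sign of every enzyme but Plod1, whose log2 fold change ran from -0.05 to 0.07 and was -0.11 without both replicates 3. The log2 fold change of Plod2 ran from -0.80 without vehicle replicate 3 to -0.51 without vehicle replicate 2, and that of Lox from -0.42 to -0.24 without the same libraries. Without vehicle replicate 3, edgeR called Plod2 (adjusted p = 0.0214) and Loxl1 (adjusted p = 0.0462) as lower, where 1.55% of all genes were called lower. Without the replicates 3 of both treatments it called 4 of the 8 as lower, Plod2, Loxl1, Lox and Loxl2, with adjusted p from 0.0153 to 0.0454, where 2.61% of all genes were called lower. In that fit the log2 fold change of Plod2 was -0.85 and that of Lox -0.44. By edgeR, enzymes were called only in these 2 fits, both without vehicle replicate 3, which was the lowest vehicle library for all 8.

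**Figure D2:**
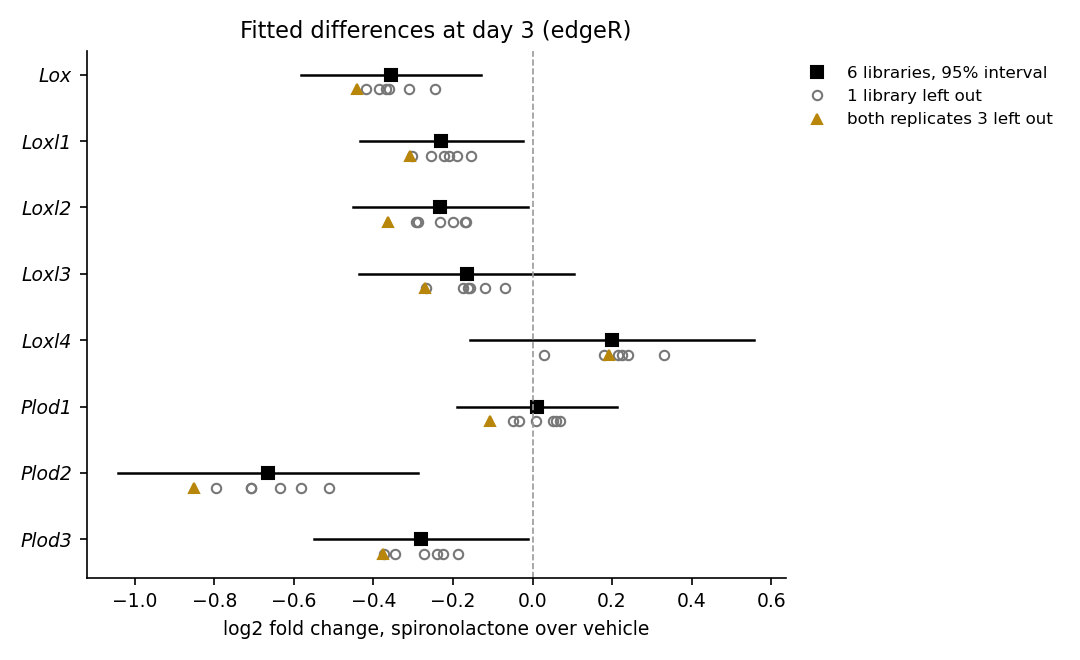
Log2 fold change of each enzyme, spironolactone over vehicle, from edgeR on 6 libraries (squares with 95% intervals), with each library left out in turn (open circles) and with both replicates 3 left out (triangles). Plod2 lies furthest to the left at -0.66, and the circles of Plod1 fall on both sides of 0.

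Levels were compared between genes per transcript length, in TPM, a unit scaled by transcript length and library total. Lox was the most abundant of the 8, at 138 ± 6.47 TPM (SD, n = 3) with spironolactone and 184 ± 24.01 TPM (SD, n = 3) with vehicle, above 94.15% of the tested genes by its mean over the 6 libraries. Loxl1 followed at 87.6 and 107 TPM and Plod1 at 59.5 and 61.5 TPM. Plod2, Loxl2 and Plod3 came next, then Loxl3 at 9.56 and 11.2 TPM and Loxl4 at 7.45 and 6.75 TPM. Loxl4, the least abundant, was still above 29.0% of the tested genes. With vehicle the middle genes were ordered Plod1, Plod2, Loxl2 and Plod3, and the range of each over libraries overlapped the next, although each gene was above the next within all 3 libraries. With spironolactone the order was Plod1, Loxl2, Plod3 and Plod2, and only Plod3 and Plod2 overlapped, at 28.5 and 28.1 TPM. Plod2 thus stood above Loxl2 and Plod3 with vehicle and below Loxl2 with spironolactone. On the TPM scale the spironolactone libraries lay wholly below the vehicle libraries for 4 of the 8 genes (Lox, Loxl1, Loxl2 and Plod2), where 23.1% of all genes did so. The median log2 fold change of all genes on that scale was -0.06.

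The composition of the lysyl hydroxylase transcripts differed between the groups. Plod2 made up 24.6%, 23.3% and 24.6% of the summed Plod TPM in spironolactone replicates 1, 2 and 3, and 31.9%, 34.3% and 30.0% in vehicle replicates 1, 2 and 3. The groups did not overlap, and the difference between the means, 24.2% ± 0.782 against 32.1% ± 2.14 (SD, n = 3 each), was larger than the spread within either group. Plod1 made up more of the sum with spironolactone, at 51.2% ± 1.44 with spironolactone and 42.9% ± 2.11 with vehicle. Plod3 overlapped, at 24.6% ± 1.27 and 25.1% ± 0.124. The 3 shares add up to the whole, so a lower Plod2 share goes with higher shares of the others. The TPM of Plod1 itself was 59.5 with spironolactone and 61.5 with vehicle and overlapped. A ratio within a library does not depend on how libraries are scaled. The ratio of Plod2 to Plod1 TPM was 0.497, 0.447 and 0.472 with spironolactone and 0.744, 0.842 and 0.667 with vehicle, so vehicle replicate 3 was again the lowest vehicle library and still above every spironolactone library. These ratios were chosen after the values of the genes were known. Neither the shares nor the ratios were tested, and how often those of other genes separate is not given here.

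**Figure D3:**
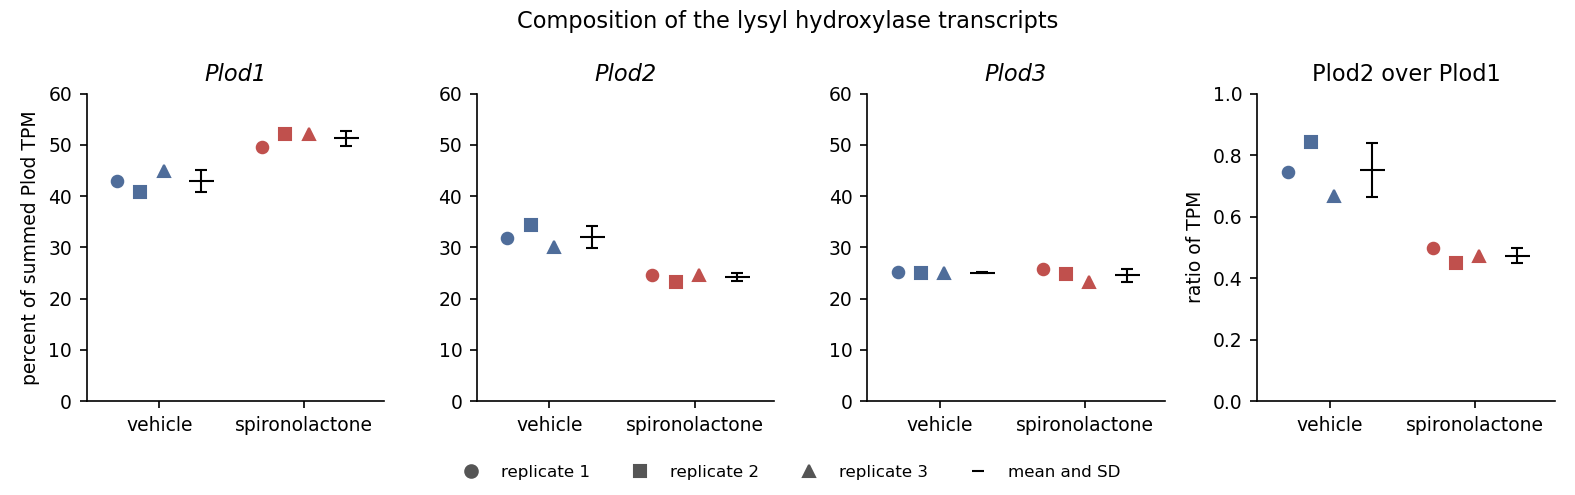
Share of each lysyl hydroxylase gene in the summed TPM of the 3 (first 3 panels, in percent) and the ratio of Plod2 to Plod1 TPM (last panel), by library, with vehicle in blue, spironolactone in red, symbols for replicates, and black bars the mean and SD. The Plod2 share is 30.0% or more in each vehicle library and 24.6% or less in each spironolactone library.

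The summed level of the lysyl oxidase family was lower with spironolactone, and its shares differed by fewer percentage points than those of Plod1 and Plod2. The 5 genes summed to 286, 264 and 277 TPM with spironolactone and to 358, 387 and 304 TPM with vehicle, with no overlap. Lox made up 50.1% ± 0.427 of the sum with spironolactone and 52.6% ± 1.63 with vehicle (SD, n = 3 each), Loxl1 31.8% and 30.6%, and Loxl2 11.97% and 11.6%. Loxl4 took 2.69% ± 0.447 and 1.94% ± 0.133. The shares of Lox, Loxl3 and Loxl4 did not overlap between groups. Their differences, spironolactone minus vehicle, were -2.56, 0.282 and 0.750 percentage points, where that of the Plod2 share was -7.89. Shares of a family add up to the whole, so a lower Lox share goes with higher shares of others. The TPM of Loxl3 (9.56 with spironolactone, 11.2 with vehicle) and of Loxl4 (7.45 and 6.75) overlapped between the groups. How often shares of other genes separate is not given here. In relative terms the mean Loxl4 share with spironolactone was 1.39 times that with vehicle, the Lox share 0.951 times and the Plod2 share 0.754 times.

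Lox and Plod2, and by smaller differences Loxl1 and Plod3, were also lower relative to the collagen transcripts of the same library. The fibrillar collagen genes Col1a1 and Col3a1 summed to 3329 ± 151 TPM with spironolactone and 3561 ± 338 TPM with vehicle (SD, n = 3 each) and overlapped. Col1a2 was planned as part of this sum but is left out, because no row was matched to that symbol. Per 1000 TPM of these collagens, Lox had 41.1, 39.9 and 43.6 TPM with spironolactone and 53.7, 53.0 and 48.2 TPM with vehicle. Plod2 had 8.48, 7.65 and 9.23 TPM against 14.2, 14.0 and 10.8 TPM. In both cases every spironolactone library was below every vehicle library, which was also so per 1000 TPM of 8 stromal fibroblast and keratocyte markers. On a log2 scale the difference per collagen was -0.61 for Plod2 and -0.31 for Lox, and -0.59 and -0.29 per stromal marker. Loxl1 and Plod3 also lay wholly below the vehicle libraries per collagen, with log2 differences of -0.19 and -0.24, but overlapped per stromal marker. Loxl2, Loxl3, Loxl4 and Plod1 overlapped by both measures, with a log2 difference of 0.05 per collagen for Plod1. The share of all genes that separate by these ratios is not given here.

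**Figure D4:**
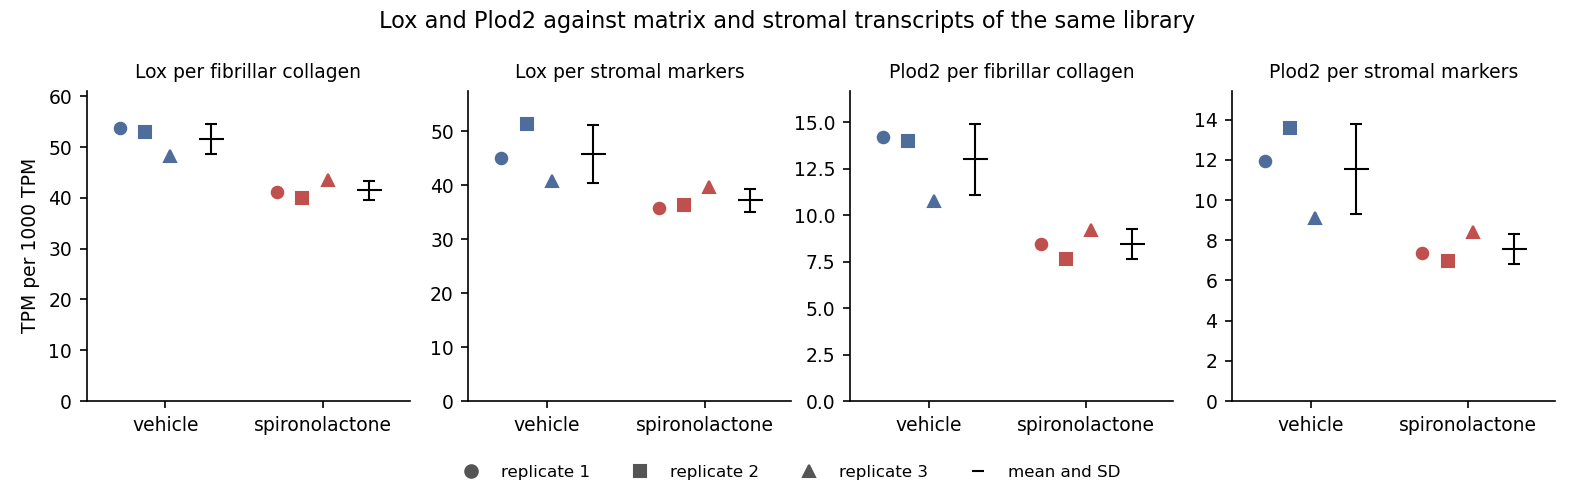
TPM of Lox and Plod2 per 1000 TPM of Col1a1 plus Col3a1 (fibrillar collagen) or of 8 stromal fibroblast and keratocyte markers, by library, with vehicle in blue, spironolactone in red, symbols for replicates, and black bars the mean and SD. In all 4 panels the spironolactone points lie below the vehicle points.

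The rest of the pathway was read from 7 lists with 71 tested genes, of which 0 passed the edgeR test in either direction. Of these, 50 had negative and 21 positive log2 fold changes, where 51.6% of all genes tested were negative. At an unadjusted p under 0.05 by edgeR, 15 were lower and 7 higher, where 10.4% of all genes were lower and 12.2% higher at that p. DESeq2 called 8 of the 71 lower (among them Tll1, Fn1, Col4a2, Fbn1, Slc23a2, Tgfb2 and Ctgf) and 4 higher (Slc31a2, Egln3, Slc2a1 and Ldha). It called 3.55% of all genes lower and 6.12% higher. Partners of the hydroxylases in the endoplasmic reticulum were negative in 14 of 16 genes, with a median log2 fold change of -0.13 (-0.25 without the replicates 3). Serpinh1, the collagen chaperone HSP47, had 820, 719 and 830 CPM with spironolactone and 955, 951 and 856 CPM with vehicle. Its log2 fold change was -0.22. Fkbp14, a prolyl isomerase of that compartment, had -0.25, while the prolyl hydroxylase gene P3h2 had 0.32. All 3 had an adjusted p between 0.12 and 0.181.

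Proteins that process procollagen and lysyl oxidases or dock them were negative in 11 of 12 genes, with a median of -0.22 (-0.13 without vehicle replicate 2). Tll1, a protease of the BMP1 family that can release active Lox, had 9.47, 9.18 and 6.10 CPM with spironolactone and 13.9, 14.0 and 12.9 CPM with vehicle. Its log2 fold change was -0.72 (SE 0.17, adjusted p = 0.0819 by edgeR). Its more abundant relative Bmp1 had 0.03. The fibronectin gene Fn1 and the periostin gene Postn, whose products bind matrix and help Lox act, had log2 fold changes of -0.43 and -0.28.

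Among the substrates 9 of 10 genes were negative with a median of -0.19 (-0.06 without vehicle replicate 2 and -0.32 without both replicates 3). Of the fibrillar chains, Col1a1 and Col3a1 had log2 fold changes of -0.07 and -0.02, Col5a1 and Col5a2 had -0.10 and -0.14, and Col2a1, known from cartilage and the vitreous, had -1.10 (adjusted p = 0.341). Col2a1 had 11.2, 16.8 and 2.45 CPM with spironolactone and 23.6, 22.4 and 19.5 CPM with vehicle, and its lowest value was in spironolactone replicate 3, the library low in retinal markers. The basement membrane genes Col4a1 and Col4a2 had -0.72 and -0.57 (adjusted p = 0.191 and 0.213). Col4a1 had 619, 445 and 448 CPM in the spironolactone libraries against 877, 1059 and 551 CPM in the vehicle libraries, and vehicle replicate 3 lay inside the spironolactone range. Fbn1, the fibrillin of elastic microfibrils, did not overlap, with a log2 fold change of -0.44 (adjusted p = 0.0998). The elastin gene Eln had 0.08.

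Genes of cofactor supply had both signs, with 4 of 7 positive and a median of 0.08 (0.02 on the TPM scale). The ascorbate transporter gene Slc23a2 had 59.7, 62.7 and 47.8 CPM with spironolactone and 79.5, 78.9 and 71.6 CPM with vehicle. The groups did not overlap, and its log2 fold change was -0.43 (adjusted p = 0.0872). The copper genes Slc31a2 and Atox1, a transporter and a chaperone, had 0.32 and 0.14, and Atp7a, the pump that loads lysyl oxidases with copper, had -0.04. Of the other cross-linking enzymes, Pxdn, which joins collagen IV, had -0.17, and the transglutaminase genes Tgm1 and Tgm2 had 0.31 and -0.11. The sign of the median of these 3 genes changed with the library left out, from -0.24 without spironolactone replicate 1 to 0.13 without spironolactone replicate 2.

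The median log2 fold changes of the pathways known to induce Lox and Plod2 had opposite signs, but neither list separated the groups. By library, the median of log2 CPM centred on each gene's mean overlapped in both lists. For TGF-beta genes it ran from -0.056 to -0.032 with spironolactone and from -0.035 to 0.128 with vehicle. For hypoxia genes it ran from -0.018 to 0.118 and from -0.125 to 0.003. TGF-beta genes were negative in 8 of 11, with a median of -0.10 (-0.16 without the replicates 3). Ctgf, a TGF-beta target, and the ligand gene Tgfb2 had -0.46 and -0.27, with no overlap between groups. Hypoxia genes were positive in 9 of 12, with a median of 0.11, which was 0.04 without spironolactone replicate 3, 0.19 without vehicle replicate 1, 0.07 without vehicle replicate 3, 0.01 without both replicates 3 and 0.04 on the TPM scale. Egln3, a hypoxia-induced prolyl hydroxylase, had 152, 160.2 and 166 CPM against 108, 98.6 and 114 CPM (log2 fold change 0.58, adjusted p = 0.0649 by edgeR). The glucose transporter gene Slc2a1 and the glycolytic gene Ldha had 0.23 and 0.26. Hif1a and Vegfa had -0.26 each.

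**Figure D5:**
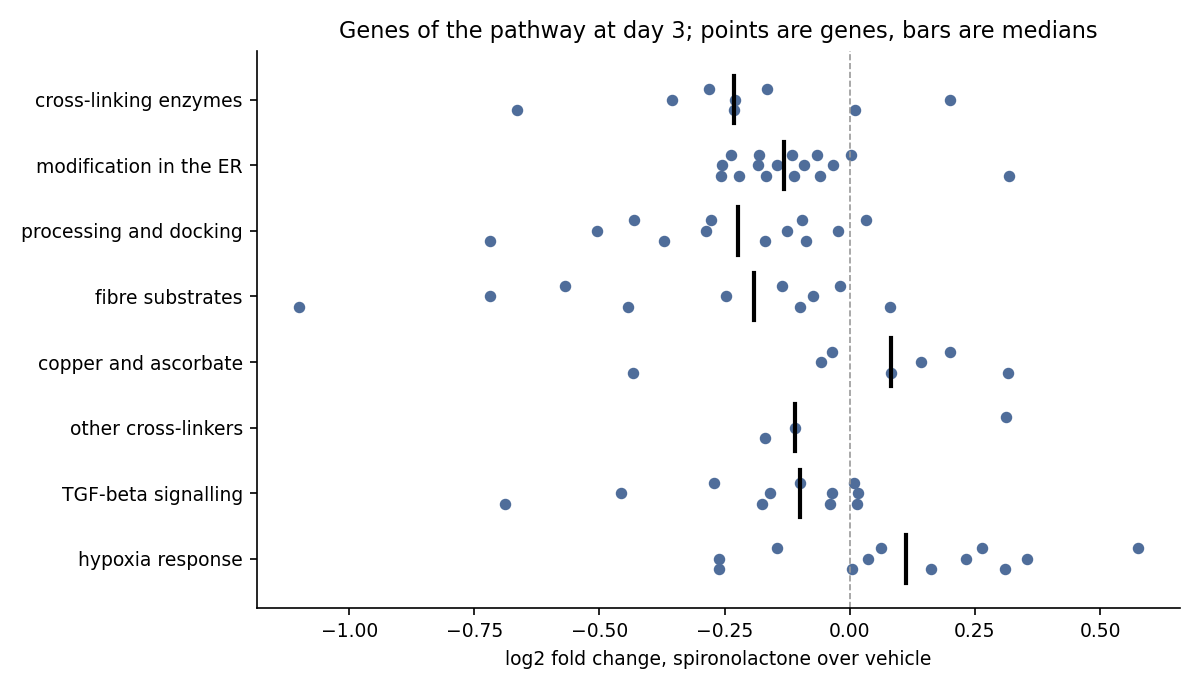
Log2 fold change, spironolactone over vehicle, of the tested genes of the cross-linking enzymes and of the 7 lists; each point is a gene and each bar a list's median. The medians of processing and docking (-0.22) and of fibre substrates (-0.19) lie near that of the cross-linking enzymes (-0.23), and those of hypoxia response (0.11) and of copper and ascorbate (0.08) lie above 0.

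The genes nearest in profile to 3 of the enzymes were found among 10196 tested genes with at least 10 CPM, by the root mean square difference of centred log2 CPM over the 6 libraries. For Lox they were Grb10, Etv5 and Cald1, at 0.014, 0.033 and 0.037, where the median gene was at 0.24. For Loxl2 they were Inpp5d, Tmem39a and Ctsz, at 0.036, 0.037 and 0.038. For Plod2 they were Sox18, S1pr1 and Adamts9, at 0.045, 0.072 and 0.074, with log2 fold changes of -0.60, -0.68 and -0.67. As these genes were picked for matching Plod2 over the same libraries, similar fold changes follow from the choice. Of the other enzymes, Plod3 was nearest to Lox, at 0.070, and Lox was nearest to Plod2, at 0.18. With so many candidates and 6 libraries, close profiles are a description of these libraries.

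Summed markers of several cell types did not overlap between the groups. All 8 blood endothelial markers were negative, and their sum ran from 334 to 442 CPM with spironolactone and from 476 to 631 CPM with vehicle. All 9 skeletal muscle markers were negative (170 to 274 against 454 to 986 CPM), and all 9 epithelial markers were positive (17308 to 20168 against 9633 to 13566 CPM). Macrophage markers were negative in 8 of 8 and overlapped (758 to 1031 against 862 to 1187 CPM), and tested neutrophil markers were negative in 5 of 5 (16.6 to 25.5 against 27.9 to 35.1 CPM). Retinal markers were negative in 7 of 7 (182 to 3339 against 3936 to 4390 CPM), so spironolactone replicates 1 and 2 were also below the vehicle libraries. Tested lens markers were negative in 4 of 4 and their sums overlapped (1.29 to 14.9 against 11.99 to 407 CPM). Cartilage and bone markers overlapped too, and those tested were negative in 5 of 5 (56.2 to 74.9 against 74.6 to 91.5 CPM). Stromal fibroblast and keratocyte markers were negative in 5 of 8 and their sums overlapped, at 4680 to 5363 CPM with spironolactone and 5135 to 5350 CPM with vehicle. Myofibroblast and smooth muscle markers, negative in 2 of 6, overlapped as well (1034 to 1241 against 941 to 1189 CPM). No matched marker of these types was at 0 in all libraries. The part of these cells in the differences of Lox and Plod2 was not tested. The values per collagen and per stromal marker above scale only to those transcripts and do not test it.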

How the data were processed

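The day 3 files hold the authors' expected counts and TPM per gene, one library per file, per the file headers. The deposited length and effective length columns, handled as signal values, are given per gene and library, per the file headers. The submitters' processing notes name RSEM 1.2.28, STAR 2.5.3a, edgeR 3.28.0, DESeq2 1.26.0, fastp, FastQC, Picard and DRAGEN, and the rn6 and Rnor_6.0 builds, without roles. The day 7 files were not used here. The deposited expected counts, of which 0.43% to 0.494% were not whole, were rounded, and a row naming no gene (0.12% to 0.181% of counts) was left out. Genes passing edgeR's expression filter (minimum count 10) were TMM-scaled. EdgeR 4.0.16 (R 4.3.3) was used for robust quasi-likelihood tests of spironolactone against vehicle with Benjamini-Hochberg adjustment over all 14762 genes; all 8 enzymes passed the filter. SE is the log2 fold change over the square root of F. Deposited TPM values were used for levels between genes, shares and ratios, with no pseudocount in these. Libraries of a group differed beyond sampling noise (chi-square per gene 7.90 to 23.2).

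Alternatives were DESeq2 1.42.0, which gave no adjusted p for 864 genes, limma 3.58.1 on voom values and on log2(TPM + 0.5) or log2(TPM + 0.1), other scalings and filters, a replicate block and left-out libraries. The test code was also run on simulated counts with the same spread for every gene and no deviant library. That run is no check on how the tests behave with libraries as uneven as these. The enzymes and lists were chosen with earlier results of these data known. The genes named by plan are the 8 enzymes, the 3 with the smallest p of each list, and Col1a1 and Col3a1 of the collagen sum. The 3 nearest profiles of Lox, Loxl2 and Plod2 were planned too. Bmp1, Eln, Atp7a, Hif1a and Vegfa were added after their values were seen. The other fibrillar chains, Col2a1, Col5a1 and Col5a2, were also named outside the plan. The values of 1 listed gene are not reported here. Of 74 listed pathway genes 72 were matched, 3 through another symbol. The sources used here do not say whether reads were counted by strand.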

Additional observations from a re-analysis of the deposited data

How the results depend on the processing

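Signs held for 7 of the 8 enzymes in all 16 alternatives; for Plod1 the sign held in 11 of 16, with log2 fold changes from -0.11 to 0.07. EdgeR called 0 enzymes and 0 genes in the fit reported. DESeq2 called 2 enzymes and 1344 genes, and without the replicates 3 of both treatments edgeR called 4 enzymes and 1040 genes. With no filter it called 148 genes and 0 enzymes. Leaving out each library in turn gave 0 to 781 genes, the most without vehicle replicate 3, with 40 without vehicle replicate 1 and 2 without spironolactone replicate 3, and 0 to 2 enzymes, the 2 without vehicle replicate 3. On deposited TPM, groups did not overlap for 4 enzymes in place of 2. The cause of these differences was not tested. With replicate number as a block the fit called 0 genes, and the adjusted p was 0.169 for Lox and 0.163 for Plod2. Same-numbered libraries had correlations of deviations across genes of 0.0898, -0.0845 and 0.0486, so the numbers were not taken as pairs. Values per collagen moved by less than the spread between libraries with stromal markers as the denominator. Shares within a family were nearly the same from rounded counts per effective length. TPM is built from that quantity, so this outcome was fixed in advance and is no check on the shares. The 3 libraries per group and 271 reads at the lowest (Loxl4) limit what can be detected.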
